A study of Allium mongolicum with 12 samples.

Results

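The transcripts described here are those of Allium mongolicum roots that stood near their control level through 48 h of saline-alkali stress and were lower at 72 h. There are 98 of them among the 98328 assembled transcript features in the deposited table. They were selected on the measured values of all 12 libraries, in CPM (each count as a share of its library total, on a common scale). A transcript had to reach a mean of 5 CPM and to have all 3 libraries of the 72 h group below the 9 other libraries. Its 72 h mean had to lie at least 1.5-fold under the lowest other group mean, and its 24 h and 48 h means had to stay within 1.5-fold of the control mean. Their levels are therefore given as a description, without a test.

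Allium mongolicum is a wild onion of dry steppe. Unstressed seedlings, sampled at 0 h, form the control group CK. The other groups, T24, T48 and T72, are named for the 24 h, 48 h or 72 h that the seedlings spent in a solution of NaCl, Na2SO4, NaHCO3 and Na2CO3. These salts were mixed at 1:9:9:1 to a total salinity of 150 mmol/L, after 45 days of growth and 7 days in diluted Hoagland solution. Each group drew on 20 seedlings and has 3 libraries, and how the seedlings were divided among the libraries is not stated. The p-values below therefore reflect library-to-library spread alone, and this spread may be technical. No unstressed roots of 24 h, 48 h or 72 h are among the libraries, so a change with stress and a change with elapsed time cannot be told apart. In bulk roots, fewer cells of a type and less RNA per cell cannot be told apart either.

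Carbonate and bicarbonate salts load a root with sodium and also raise the pH around it. Sodium competes with potassium for uptake and lowers the water potential, while high pH reduces the solubility of iron and phosphate and disturbs the proton gradient that drives nutrient transport. Root transcript levels are known to change in phases under such stress, with early signalling and later adjustment of growth and metabolism. The table identifies features by assembly ID and pairs none of them with a gene name, so no function or pathway is assigned to any transcript below.

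Library totals ran from 23099287 to 26388120 estimated counts, and a count of 3 corresponded to 0.114 to 0.13 CPM. Such limits cover counting error only. All 3 libraries of 48 h correlated more with another group than with each other. Replicate 2 of the 48 h group had a mean correlation of 0.895 with the control libraries and 0.854 with the other 48 h libraries, over 20612 features of at least 5 CPM. Replicates 1 and 3 had mean correlations of 0.889 and 0.901 with the 24 h libraries and of 0.886 each with the other 48 h libraries. The 3 libraries of 24 h resembled each other most closely, with mean mutual correlations of 0.989 to 0.990 and a median coefficient of variation (CV) of 6.21%. Over the same features the median CV was 18.6% in CK, 20.8% at 48 h and 13.4% at 72 h.

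Together the 98 transcripts held 0.284% to 0.352% of the counts in the 72 h libraries and 0.536% to 0.812% in the earlier ones. Their summed level was 6678, 6933 and 5756 CPM in the 3 control libraries and 5363, 5360 and 5367 CPM at 24 h. At 48 h the sums were 6293, 8116 and 5887 CPM, and at 72 h 2837, 3520 and 3013 CPM. The 48 h library with the highest sum was replicate 2. The mean sum was 6455 ± 619 CPM in CK and 3123 ± 354 CPM at 72 h (SD, n = 3 each), a difference that the rule fixes in direction. Without the most abundant transcript the order of the groups was the same, with 5213 to 6238 CPM in CK, 4592 to 4646 CPM at 24 h, 5127 to 7161 CPM at 48 h and 2454 to 3036 CPM at 72 h.

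**Figure D1:**
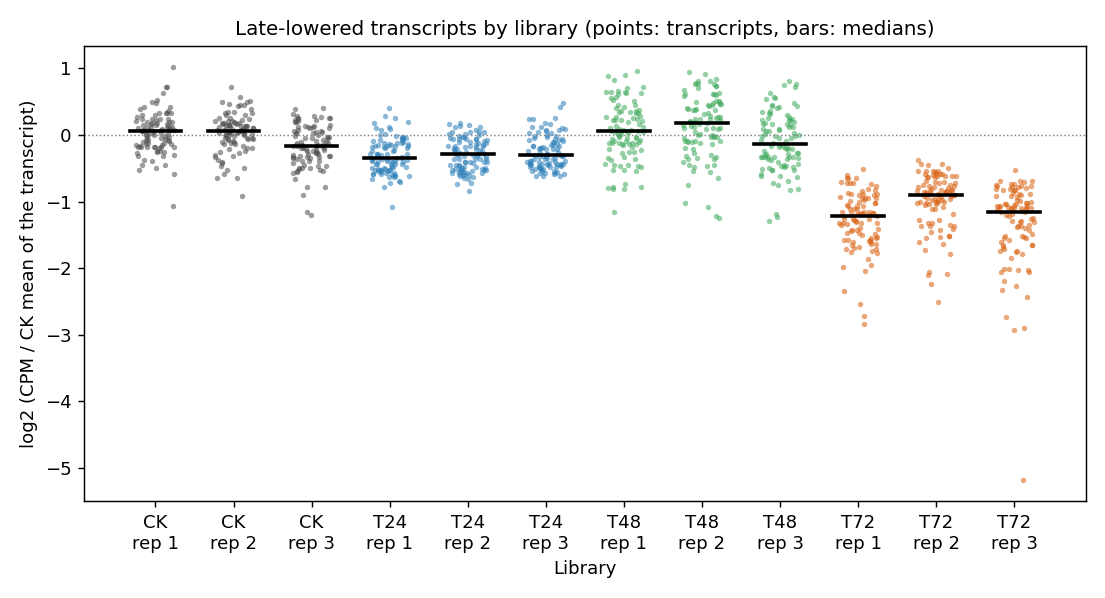
Level of each of the 98 transcripts in each of the 12 libraries, as the log2 ratio of its CPM to its own CK mean (vertical axis), with libraries on the horizontal axis, points for transcripts and black bars for medians. The medians lie between -0.16 and 0.06 in CK, between -0.35 and -0.29 at 24 h, between -0.14 and 0.18 at 48 h and between -1.22 and -0.90 at 72 h.

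The fall at 72 h was moderate for most transcripts. The control mean was 2.16 times the 72 h mean at the median, with a range of 1.52 to 5.44 and quartiles of 1.91 and 2.42. A fall of at least 2-fold from CK was seen in 66 transcripts, of at least 3-fold in 15 and of at least 4-fold in 6. On the log2 scale the median ratio of 72 h to CK was -1.11, against 0.09 over all features of at least 5 CPM. With library sizes corrected by TMM (edgeR's trimmed-mean scaling) the median of all features moved to -0.05 and that of the 98 transcripts to -1.24, so the distance between them was -1.20 under both scalings.

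Levels before the fall spanned a wide range. The mean over 12 libraries ran from 5.03 to 678 CPM with a median of 22.4 CPM, and the median over all features of at least 5 CPM was 18.9 CPM. There were 44 transcripts between 5 and 20 CPM, 40 between 20 and 100 CPM and 14 at 100 CPM or more. The 14 abundant ones were 14.3% of the transcripts, where 9.21% of all features of at least 5 CPM were that abundant. The size of the fall from CK was similar in the 3 classes, with medians of 2.24-fold, 2.09-fold and 2.10-fold, but falls above 2.41-fold were found only below 100 CPM.

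The most abundant of the 98, TRINITY_DN32776_c0_g1_i1_2, had the smallest fall from CK. Its level was 801, 695 and 543 CPM in the control libraries, 771, 742 and 720 CPM at 24 h, 811, 955 and 759 CPM at 48 h, and 384, 484 and 470 CPM at 72 h. The 72 h libraries lay below the others, but the lowest control library was only 1.12 times the highest 72 h library. Group means were 680 ± 130 CPM in CK, 744 ± 25.4 CPM at 24 h, 842 ± 101 CPM at 48 h and 446 ± 54.5 CPM at 72 h (SD, n = 3), so that the control mean was 1.52 times and the 48 h mean 1.89 times the 72 h mean. This transcript was among the 13 whose 24 h mean lay above the control mean.

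The transcript ranked first by the rule's ratio of control to 72 h, TRINITY_DN40974_c1_g1_i6_4, was far more variable. It was measured at 155, 115 and 65.0 CPM in the control libraries, at 72.6, 73.6 and 79.2 CPM at 24 h, at 146, 53.0 and 131 CPM at 48 h, and at 19.2, 36.7 and 14.6 CPM at 72 h. The low 48 h value, from replicate 2, lay below all control libraries, but all 3 libraries of 72 h were lower still. The means were 112 ± 45.2 CPM in CK and 23.5 ± 11.6 CPM at 72 h (SD, n = 3), with a CV of 40.4% and 49.5%. The control mean was 4.75 times the 72 h mean, the 24 h mean 3.20 times and the 48 h mean 4.68 times.

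**Figure D2:**
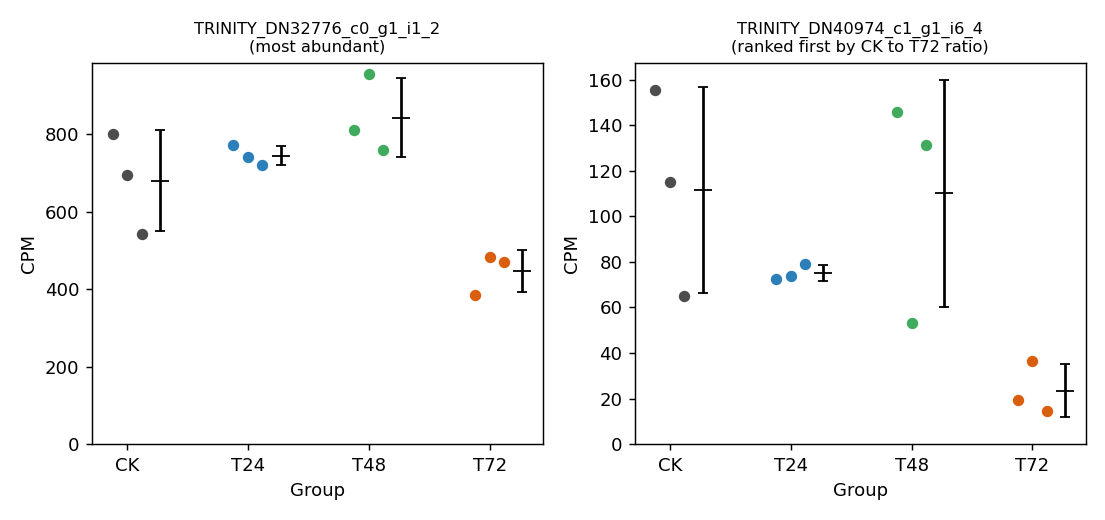
CPM (vertical axes, starting at 0) of the most abundant transcript and of the transcript ranked first by the ratio of CK to T72, by group (horizontal axes), with a point for each library and the mean ± SD of 3 libraries in black. The abundant transcript falls from 680 to 446 CPM and the other from 112 to 23.5 CPM, with wide scatter in CK and at T48 for the latter.

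The 6 transcripts with falls of at least 4-fold were mostly faint, which limits how well their size is known. Their control means ran from 6.77 to 112 CPM and their 72 h means from 1.62 to 23.5 CPM. The CV within CK was 8.24% to 90.1%, and within 72 h 17.3% to 76.5%. Among values singled out after they were seen, the largest fold of all, 5.44, belonged to a transcript at 17.9, 4.64 and 3.81 CPM in the control libraries and 1.23, 1.86 and 1.75 CPM at 72 h. Its control mean thus rested on replicate 1, although the lowest of the 9 other libraries was still 1.98 times the highest 72 h library. A transcript with a 4.29-fold fall was at 3.13 and 3.30 CPM in the first 2 libraries of 72 h and at 0.261 CPM in replicate 3, which gave the lowest point among all 98.

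**Figure D3:**
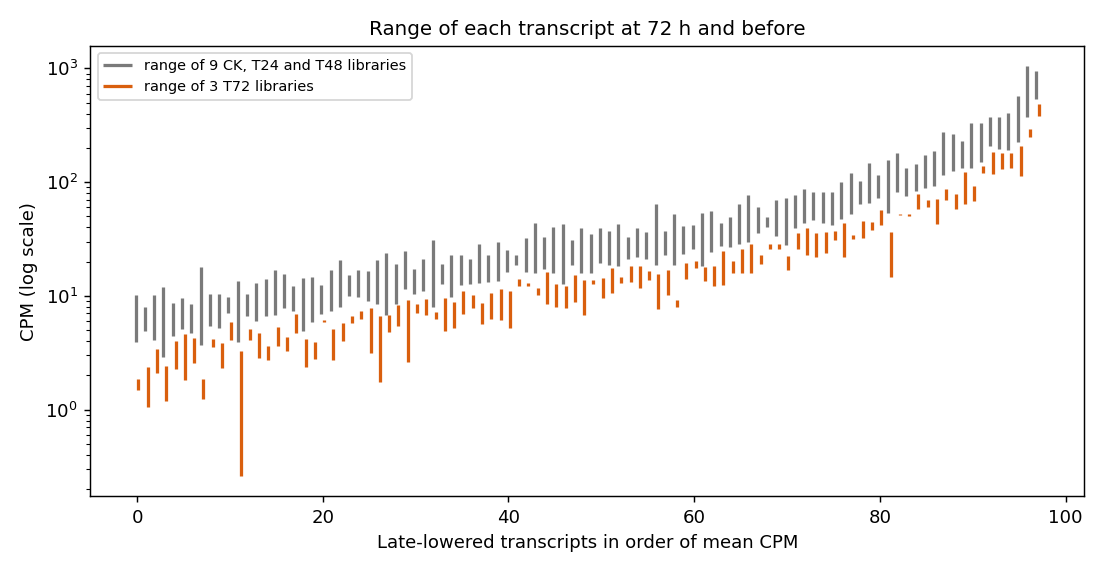
Range of each of the 98 transcripts over the 9 libraries of CK, T24 and T48 (grey) and over the 3 libraries of T72 (orange), in CPM on a log axis, with transcripts in order of mean CPM. The orange range ends below the grey one in every case, as the rule requires, and in 88 transcripts the gap between them is under 1.5-fold.

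The 72 h libraries lay below the others by a narrow margin in most cases. The lowest of the 9 other libraries was 1.24 times the highest 72 h library at the median, and the range was 1.01 to 2.13. This ratio was below 1.1 in 18 transcripts, below 1.5 in 88 and below 2 in 95. Of the features that met all other conditions, 97 overlapped, the nearest of them with a ratio of 0.997. The lowest library before 72 h was a control library in 30 transcripts, a 24 h library in 33 and a 48 h library in 35.

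Within the 72 h group, replicate 2 was the least lowered. It was the highest 72 h library in 66 of the 98 transcripts (67.3%), and in 29.6% of all features of at least 5 CPM. Replicates 1 and 3 were the lowest of the 3 in 42 and 45 transcripts, and replicate 2 in 11. The median log2 ratio to the control mean was -1.22, -0.90 and -1.15 in replicates 1, 2 and 3. The median CV at 72 h was 19.0% for these transcripts and 13.4% over all features of at least 5 CPM, whereas in CK (19.8% and 18.6%), at 24 h (6.26% and 6.21%) and at 48 h (21.7% and 20.8%) the paired medians lay close to each other. Without replicate 2 of 72 h, 214 features met the rule in place of 98, and 3 of the 98 no longer did. Leaving out replicate 1 or 3 of 72 h gave 117 and 122 features, and 22 and 20 of the 98 no longer met the rule. Leaving out any 72 h library eases the condition that all of them lie below the others. Why replicate 2 was less lowered was not tested.

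Before 72 h the level was not flat. At 24 h the mean was below the control mean in 85 of the 98 transcripts, and in 44.8% of all features of at least 5 CPM. With TMM scaling it was below in 94 of the 98, and the fitted change was below 0 in 11941 of 20590 features of at least 5 CPM. The median ratio of 24 h to CK was 0.801, against 1.04 over all those features. The log2 medians were -0.32 and 0.06, and their distance was -0.38 with either scaling. By 48 h the median ratio was 1.05, against 1.02 over all features. The 48 h mean was below CK in 42 transcripts, or in 51 with TMM scaling, so no direction is given for 48 h. Relative to 24 h, 82 transcripts had a higher mean at 48 h. The control level enters both the rule and each of these ratios, and the values at 24 h and 48 h were also used by the rule.

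Taken by the order of their means, 75 of the 98 transcripts were lower at 24 h than in CK and higher again at 48 h than at 24 h, a course shared by 30.4% of all features of at least 5 CPM. In 47 of them the 48 h mean reached or passed the control mean. For these 47 the median ratio to CK was 0.805 at 24 h and 1.22 at 48 h, and the 48 h mean was 2.59 times the 72 h mean. In the other 28, which came back only in part, the median ratios were 0.739 and 0.888. A further 10 transcripts were lower at 24 h and lower still at 48 h, with median ratios of 0.834 and 0.792, before the step to 72 h. The remaining 13 were at or above the control mean at 24 h, and 9 of these were at or above it at 48 h as well, with median ratios of 1.095 and 1.24. The group with the highest mean was 48 h in 54 transcripts, CK in 38 and 24 h in 6. All counts of these courses use library totals and were not repeated with TMM scaling. With TMM the 48 h mean was below CK in 51 of the 98 in place of 42. How many came back to the control mean by 48 h therefore depends on the scaling.

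In single libraries the dip at 24 h was less clear. The counts in this paragraph use library totals and were not repeated with TMM scaling. With TMM the median log2 ratio of 24 h to CK over features of at least 5 CPM moved from 0.06 to -0.08. All 3 libraries of 24 h lay below all 3 control libraries in 29 transcripts (29.6%), where 18.8% of the features of at least 5 CPM did so. For these 29 the ratio of 24 h to CK was 0.669 to 0.868, and 25 had a higher mean at 48 h than at 24 h. The groups were apart in the opposite direction in 2 transcripts (background 27.3%). The 48 h libraries were all below CK in 1 transcript (background 9.97%) and all above CK in 5 (11.3%). They were all above the 24 h libraries in 28 transcripts (14.6%) and all below them in 1 (19.8%). Lowered only at 72 h is thus meant within the 1.5-fold bounds of the rule. The separation of the 29 is a description, since the rule used these values. The 24 h libraries also varied little, with a median CV of 6.26% for the 98. In edgeR's quasi-likelihood test (adjusted p below 0.05) 2 of the 98 were called lower at 24 h, where 4.77% of features of at least 5 CPM were. The 72 h libraries were below CK, 24 h and 48 h in all 98 by the rule, where 16.9%, 18.9% and 13.9% of features of at least 5 CPM had these groups apart in that direction.

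**Figure D4:**
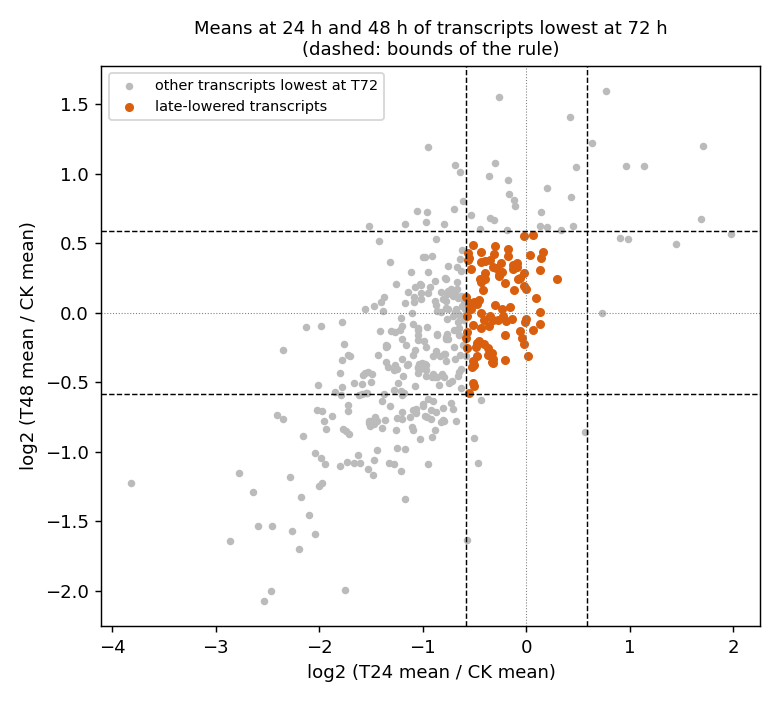
Log2 ratio of the T24 mean to the CK mean (horizontal axis) and of the T48 mean to the CK mean (vertical axis). Shown are the 405 transcripts with all T72 libraries below the others and the 1.5-fold fall. The 98 late-lowered ones are in orange, the others in grey and the bounds of the rule dashed. Of the orange points 85 lie left of 0 on the horizontal axis, with a median of -0.32, and 270 grey points lie beyond the lower bound.

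The conditions of the rule reduced the features step by step. Of the 20612 features of at least 5 CPM, 1077 had their 3 libraries of 72 h below all others, and 405 of these also had the 1.5-fold fall. Of the 405, 270 had a 24 h mean below the bound and 11 above it, while the 48 h mean was below its bound in 100 and above it in 38. The bound on 24 h alone removed 169 features, the bound on 48 h alone 26, and both together 112, so that 124 were left after the 24 h bound and 98 after both. Most of the 405 therefore had a 24 h mean over 1.5-fold below the control mean. Those of the 1077 without the 1.5-fold fall are not covered by this count. Just inside the lower 24 h bound the ratios to CK were 0.669, 0.671 and 0.671, and just outside it 0.667, 0.663 and 0.658. At the bound on the fall the nearest values were 1.505 inside and 1.496 outside, and at the level bound 5.03 and 4.9999 CPM. At the upper 48 h bound they were 1.47 and 1.51. As the limit of 200 was not reached, no transcript was dropped by rank.

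The mirrored pattern, a rise at 72 h from a level near control at 24 h and 48 h, was found in 155 features by the same bounds. With TMM scaling the counts were 90 late falls and 140 late rises. Another group could also be the lowest one by the same 1.5-fold and separation conditions, with no bound on the rest. Such features numbered 435 for CK, 69 for 24 h, 197 for 48 h and 405 for 72 h.

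Calls of a fit across the whole table are listed beside those of all features, although the rule had already selected on these contrasts. In edgeR's quasi-likelihood test (adjusted p below 0.05), 85 of the 98 passed as lower when 72 h was set against CK. The background was 2.69% of all 76273 features tested and 7.99% of those of at least 5 CPM. Against 48 h, 65 of the 98 were called lower (1.31% of all tested, 3.95% at 5 CPM or more), and against 24 h 11 were (1.03% and 0.505%). These contrasts chose the transcripts, so nothing is read from the counts. The fold behind them differed as well, since at the median the mean of 72 h was exceeded 2.31 times by 48 h and 1.71 times by 24 h. The 85 calls became 24 without replicate 1 of 72 h, 26 without replicate 3, 47 without replicate 2 of CK, and 53 to 55 without any 1 of the 24 h libraries. They became 18 with the 24 h libraries averaged to 1 and 51 when only CK and 72 h were fitted. The 65 calls against 48 h became 9 and 15 without replicates 1 and 3 of 72 h, 37 to 38 without any 1 of the 24 h libraries and 39 without replicate 1 of 48 h. They became 0 when only 48 h and 72 h were fitted. The 11 calls against 24 h became 0 without any 1 of the 24 h libraries, 1, 6 and 1 without replicates 1, 2 and 3 of 72 h, and 25 without replicate 2 of 48 h. They became 64 when only 24 h and 72 h were fitted, 50 with DESeq2 and 1 with a replicate block.

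At 24 h, 2 of the 98 were called lower than CK by edgeR, where 1.5% of all tested features and 4.77% of those of at least 5 CPM were. At 48 h edgeR called 0 of the 98 lower (0.313% and 1.04%) and 0 higher, and DESeq2 called 1, beside 4925 of all features. In edgeR's test 8 of the 98 had an unadjusted p below 0.05 at 48 h, as had 5266 of 20590 features of at least 5 CPM. Without replicate 2 of 48 h, 5 of the 98 were called lower at 48 h, beside 1806 of all features. Without any other single library 0 of the 98 were. Calls of the 98 at 24 h ran from 0 to 10 when single libraries were left out. The 10 came from the fit without replicate 2 of 48 h, where 2273 of all features were called lower. DESeq2 called 7 of the 98 at 24 h, beside 3746 lower and 4489 higher of all features. When only CK and 24 h were fitted, 19 of the 98 were called lower at 24 h, beside 2956 of all features tested. The rule bounds both changes at 1.5-fold, so nothing is read from these counts.

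Replicate 2 of 48 h was the highest of all 12 libraries in 33 of the 98 transcripts (33.7%), and in 9.36% of all features of at least 5 CPM. It was the highest 48 h library in 52, and replicate 3 was the lowest in 47. The median log2 ratio to the control mean was 0.05, 0.18 and -0.14 in replicates 1, 2 and 3 of 48 h. When this library was left out, 98 features again met the rule, of which 81 were among the original 98. The part of replicate 2 in the rise from 24 h to 48 h was not tested.

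Over the 9 libraries before 72 h, the transcripts resembled each other more than features did in general. The mean Pearson correlation of log2(CPM + 0.5) was 0.193 over 4753 pairs of the 98 and 0.011 over all pairs of features of at least 5 CPM. The correlations ran from -0.93 to 0.965, and 68.4% were above 0. These values share libraries and, through the rule, a ceiling on the change between group means, so they are a description only.

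The form of the feature IDs gave the main property that the rule did not use. Each ID names an assembly component, a gene part within it, an isoform and a final suffix of 1, 2, 3 or 4, which the deposited table leaves unexplained. Suffixes 1, 2, 3 and 4 were carried by 23, 27, 18 and 30 of the 98, or 23.5%, 27.6%, 18.4% and 30.6%. Among all features of at least 5 CPM the shares were 27.2%, 23.8%, 24.0% and 25.0%. Median falls from CK were 2.21-fold, 2.11-fold, 1.99-fold and 2.22-fold for the 4 suffixes. No 2 features of the table shared gene part and suffix, and no 2 of the 98 shared a component and suffix, so none of them are listed as isoforms of the same assembled gene.

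A shared gene part without a shared suffix went with no likeness in the change across libraries. Over 3816 pairs of features of at least 5 CPM with the same gene part and different suffixes, the median correlation over the 12 libraries was -0.006, and 1.55% of pairs exceeded 0.8. Over 857 pairs with the same component and the same suffix the median was 0.323, and 13.9% exceeded 0.8. IDs that differ in suffix alone were therefore not treated as versions of 1 transcript.

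**Figure D5:**
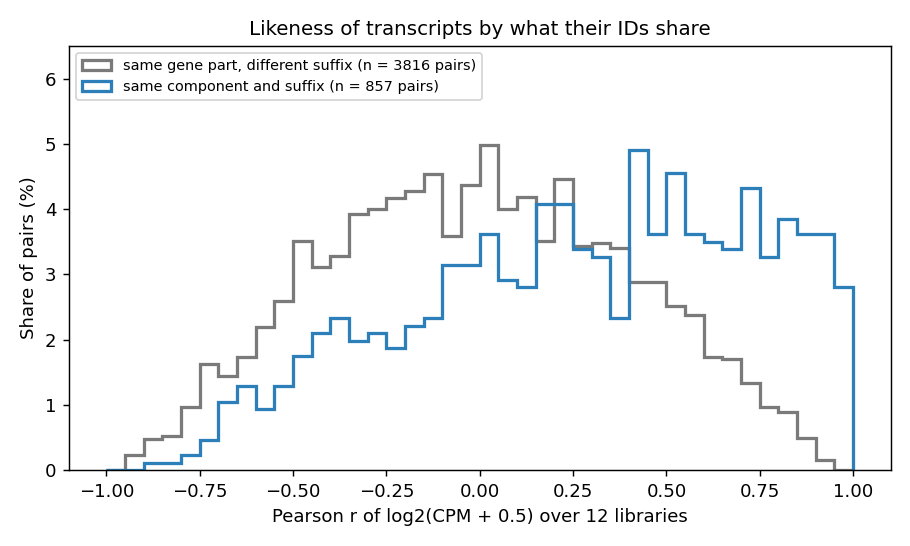
Pearson correlation of log2(CPM + 0.5) over 12 libraries (horizontal axis) for pairs of features of at least 5 CPM, as the share of pairs in percent (vertical axis), for pairs with the same gene part and different suffixes (grey) and with the same component and suffix (blue). The grey outline is centred near 0, with a median of -0.006, and the blue outline lies further right, with a median of 0.323.

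Neighbours in the same component and suffix gave a view of the fall in features whose own values did not choose the 98. This matching was added after seeing the data. The plan matched neighbours by gene part, and those had a median log2 change of -0.02 at 72 h against CK, as given below. By component and suffix there were 47 neighbours for 32 of the transcripts, and they may share reads with them. Some of the 32 had more than 1 neighbour, so the 47 are not independent. Most were faint, with a median of 1.19 CPM, and 43 passed the low-count filter, a filter that a feature can pass through any 1 group. Of the 43, 30 had a fitted change below 0 at 72 h against CK, as had 35157 of all 76273 features tested. The median was -0.75 on the log2 scale, against 0.06 over all tested features. In edgeR's test 5 of the 43 (adjusted p below 0.05) were lower and 0 higher, beside 2.69% of all tested features and 7.99% of those of at least 5 CPM called lower. The count of 5 was 2 without replicate 1 or replicate 3 of 72 h and 2 with the 24 h libraries averaged, and DESeq2 gave 10.

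The 8 neighbours of at least 5 CPM, described after their values were seen, could be read one by one, and 6 of them had a lower mean at 72 h than in CK. Scaled by library totals, 8813 of 20590 features of at least 5 CPM had a fitted change below 0. A neighbour can pass this level cut through a high control mean, which favours a lower 72 h mean. One had 19.5 CPM in CK and 4.59, 5.67 and 1.79 CPM at 24 h, 48 h and 72 h. The correlation of the 8 with their transcript over 12 libraries had a median of 0.712, and 4 of the 8 exceeded 0.8. Over all 857 pairs with the same component and suffix the median was 0.323, and 13.9% exceeded 0.8. The rule sets each of the 98 lowest at 72 h, so a neighbour lower at 72 h can correlate through those libraries. The most abundant of the 8 had means of 99.96 CPM in CK, 83.3 CPM at 24 h, 100.1 CPM at 48 h and 56.7 CPM at 72 h. It correlated with its neighbour among the 98 at 0.943. It missed the rule only by the size of its fall to the lowest other mean, and edgeR gave it an adjusted p of 0.084 at 72 h against CK. The next, with 86.6, 34.9, 54.5 and 15.9 CPM in CK, 24 h, 48 h and 72 h, was called lower at 72 h (log2 change -2.57, adjusted p = 0.0042) but had already fallen outside the bound at 24 h. None of the 5 called neighbours kept both the 24 h and the 48 h mean within the bounds. The other 2 of the 8 were not lower at 72 h, with ratios to CK of 1.09 and 1.42.

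Features that share only the gene part, with another suffix, were the neighbours named in the plan, and they had a median change near 0. Of 72 such features, 64 were tested, with 33 changes below 0 and a median of -0.02 at 72 h against CK. Over all 76273 features tested, 35157 changes were below 0. In edgeR's test 4 of the 64 were lower and 2 higher (adjusted p below 0.05), beside 2050 lower and 1568 higher of all 76273 tested. The difference between the 2 kinds of neighbours was not tested.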

How the data were processed

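RNA of 12 root libraries was sequenced, and 1 table of estimated counts per assembled feature was deposited. The submitters' processing notes name Trimmomatic for read trimming. For the assembler, aligner, counter, build and strandedness, the sources used here give no name or setting. Of 990048 deposited estimated counts above 0, 1 was exactly whole. Columns were matched to samples by title, and 0 were left unassigned. The members, patterns and tests were chosen with earlier results of these data known.

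CPM values use column sums. For calls, estimated counts were rounded, features filtered with filterByExpr (76273 of 98328 kept) and libraries scaled by TMM. A model tested by quasi-likelihood (R 4.3.3, edgeR 4.0.16; Python 3.11.15 for tables) with 1 mean per group was fitted to 12 libraries, with Benjamini-Hochberg adjustment over all features tested. The plan named 2 transcripts for the text, the most abundant and the first by ratio of CK to 72 h (1 CPM added to each mean), and other single values were picked after they were seen. The plan matched neighbours by gene part, and matching by component and suffix was added after seeing the data. Alternatives were RLE factors, library totals, DESeq2 1.42.0, other filters, a replicate block, 2-group fits, left-out libraries and averaged 24 h libraries. The fit was tested on simulated data.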

Additional observations from a re-analysis of the deposited data

How the results depend on the processing

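With CPM on TMM library sizes 90 features met the selection, and 70 of the 98 were kept; 27 of the 28 lost ones left the 24 h bound. A 2-fold fall left 23, a tighter bound on the 24 h and 48 h means 32, and a mean of 20 CPM 54, while allowing overlap gave 195. Leaving out single libraries gave 98 to 214 features, and 30 of the 98 met the rule without each library in turn (28 of these with TMM as well). Over all features edgeR called 3618 at 72 h against CK, 899 against 24 h, 1794 against 48 h, 3145 at 24 h against CK and 527 at 48 h against CK. In the same order DESeq2 called 9199, 3230, 5598, 8235 and 4925. Averaged 24 h libraries, where the lone 24 h sample is assumed to vary like the other groups, gave 665, 0, 172, 0 and 1, and fits of 2 groups 2205, 5496, 0, 6789 and 4. Left-out libraries gave 1110 to 5509, 136 to 1372, 343 to 2003, 302 to 5233 and 65 to 2985. At 48 h against CK no filter gave 288 and the stricter filter 968. Of the 98, calls lower at 72 h against CK were 51 with 2 groups, 18 with averaged 24 h libraries and 24 to 91 with left-out libraries. Against 24 h they were 50 with DESeq2, 4 with no filter, 20 with the stricter filter, 64 with 2 groups, 0 with averaged libraries and 0 to 25 with left-out libraries. Against 48 h they were 0 with 2 groups, 2 with averaged libraries and 9 to 65 with left-out libraries. Neighbours by gene part called lower were 7 with DESeq2, 1 with averaged libraries and 1 to 5 with left-out libraries. Neighbours by component and suffix were 10, 2 and 2 to 6. The causes were not tested. Of 87 such values under settings other than a left-out library, 49 stayed within 1.5 times of the reported count. TRINITY_DN32776_c0_g1_i1_2 was not called at 72 h against CK in 10 of 20 alternatives and TRINITY_DN40974_c1_g1_i6_4 in 3 of 20. The rule chose both for lower values at 72 h, so nothing is read from the unchanged sign.

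Replicate numbers did not pair the libraries: same-numbered deviations from the group means correlated between -0.21 and 0.156 over the 6 pairs of groups. A replicate block gave 267 calls at 72 h against 24 h, 1474 at 24 h against CK and 98 at 48 h against CK, with 1 of the 98 transcripts called lower at 72 h against 24 h and 1, in place of 2, at 24 h against CK.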
